A study of Rattus norvegicus with 4 samples.

Results

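The response of Rat1-Omomer fibroblasts to 90 min of serum was taken as the value of every probe set on the array titled Omomer expressing, T90, over its value on the array titled Omomer expressing, T0. All 8740 probe sets other than the manufacturer's controls were used, on 2 of the 4 arrays of the series. Of these, 1744 probe sets of expressed sequence tags (ESTs), with IDs beginning rc_AA79, rc_AA80, rc_AA85, rc_AA87 and rc_AA89, are reported apart as the 5 EST series. The 5 series were chosen with earlier results of these data known. The other 6996 lie outside them, and 1673 of these also have IDs starting rc_. Rat1 is an immortalized line of rat fibroblasts. Rat1-Omomer cells had been stably infected with a retrovirus for Omomer, which is Omomyc, a Myc-interfering mutant of the Myc dimerization domain, joined to a part of the oestrogen receptor that 4-OHT (4-hydroxytamoxifen) switches on. Rat1-control cells carried the empty retrovirus. Cells of both lines were kept for 48 h in 0.1% serum, were given 4-OHT, and were harvested at 0 min or at 90 min of 10% serum, so that starvation and 4-OHT are common to all arrays. The sample labels place 4-OHT in the medium during the starvation and the methods only shortly before serum, and no array of cells without 4-OHT was analysed here. The transfection label of the Rat1-Omomer 0 min array and of the Rat1-control 90 min array contradicts their titles, and the titles were followed. No probe set is annotated as the Omomer transgene, so that its level could not be read from these arrays.

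Serum growth factors act on starved fibroblasts through the Ras and MAP kinase pathway and through calcium and cyclic AMP. Within minutes they switch on immediate early genes, which need no new protein synthesis and encode transcription factors, inhibitors that end the signal, and secreted factors. Serum response factor (SRF) drives many of them through a DNA element called the CArG box, CREB drives others through the cyclic AMP response element (CRE), and Myc, itself an early gene, binds the E-box with Max, the complex that Omomyc disturbs.

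Each condition was measured on 1 array and by 1 line of cells, so that no culture-to-culture spread and no test is available. Precision is limited by this number of arrays. Values are average differences, the mean brightness of matching over mismatching probes, on a linear scale. Values under a floor of 1048, 2 times the SD of the noise, were set to it before a fold was taken. A probe set under the floor on both arrays has no fold, and a fold with 1 value under it is a bound. The spread of folds between different probe sets of the same gene was used as the error of a fold. It had an SD of 0.69 on the log2 scale (1.61-fold) over 216 genes in Rat1-Omomer cells outside the series. In Rat1-control cells it was 0.30 (1.23-fold). Taken from the Rat1-Omomer 90 min array by itself, the floor would be 1228, so that values between 1048 and 1228 on it are uncertain. Between 3365 and 3738 probe sets lay above the floor on an array. The 9 hybridization control transcripts read up to 1.94 times as bright on the Rat1-Omomer 90 min array as on the 0 min array, with a median of 1.58, against a median of 0.994 for the Rat1-control arrays. The part of this in the folds was not tested. Of 10 fibroblast markers, 9 lay above the floor on both Rat1-Omomer arrays (all but Pdgfrb), with summed values of 418263 and 575324. None of 5 measured epithelial and none of 3 endothelial markers did, and among 5 macrophage markers Cd14 alone was above it. Of 4 hepatocyte markers 2 lay above it at 0 min and 3 at 90 min (Alb, Apoa1 and Cyp2e1 on either array), at 2969 or less, and of 4 skeletal muscle markers 1 on each array (Myh4 or Tnnt3), at 1137 or less.

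Outside the 5 EST series, 3243 probe sets had a fold in Rat1-Omomer cells. Folds of 3 or more are called higher or lower. At 90 min 115 of the 3243 (3.55%) were called higher and 120 (3.7%) lower, which are 75 and 97 genes. Of these folds, 41 and 47 are bounds. In Rat1-control cells 65 of 3008 (2.16%) were called higher and 53 (1.76%) lower. With the 5 EST series included, 2.9% of probe sets were called higher and 9.65% lower in Rat1-Omomer cells, against 1.93% and 1.81% in Rat1-control cells. The median log2 fold outside the series was 0.23 in Rat1-Omomer and -0.04 in Rat1-control cells, and 63.3% of the Rat1-Omomer folds were above 1. The median was also set to 0 over probe sets above the floor on both Rat1-Omomer arrays. Over all such probe sets this shifted the 90 min array by -0.23 on the log2 scale and gave 78 higher and 158 lower. Over those outside the series, an alternative chosen after seeing the data, it shifted it by -0.28 and gave 66 higher and 162 lower. The balance of higher and lower therefore depends on the scaling, with 48.9% of calls higher as deposited and 33.1% and 28.9% with these scalings, and lists are given below relative to the median of 0.23.

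**Figure D1:**
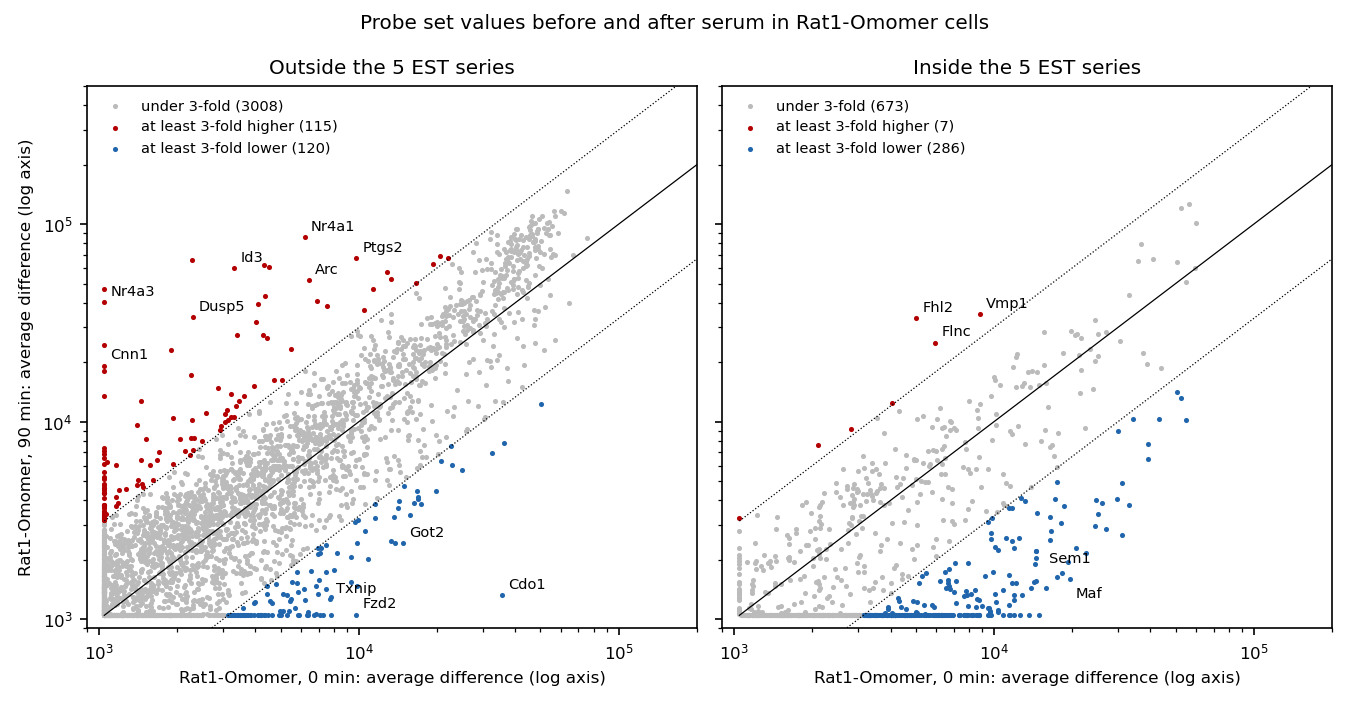
Average differences of all probe sets with a fold on the Rat1-Omomer 0 min array (x axis) and 90 min array (y axis), both on log axes, outside (left) and inside (right) the 5 EST series. The solid line marks equal values, dotted lines mark 3-fold and values under the floor are drawn at it. Red points are the 115 (left) and 7 (right) probe sets called higher, and blue points the 120 (left) and 286 (right) called lower.

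The orphan nuclear receptors of the Nr4a family, early transcription factors of many stimuli, had some of the highest folds. Nr4a1 went from 6195 to 85746 in Rat1-Omomer cells, 13.8-fold, and its other probe set from 4492 to 60829, 13.5-fold. In Rat1-control cells it stood at 16461 and 15137 at the same times. The Rat1-Omomer value was thus the lowest of the 4 at 0 min and the highest at 90 min. Nr4a3 went from 559, under the floor, to 40343, at least 38.5-fold, and in Rat1-control cells from 289 to 6790, at least 6.48-fold. Another of its probe sets reached only 1729, and none but the brightest was called higher. Nr4a2 read 1823 and 3930 in Rat1-Omomer cells.

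Other early transcription factors varied. Klf4, a Krüppel-like factor, went from 2911 to 9069, 3.12-fold, and by its other probe set 3.21-fold, whereas in Rat1-control cells it read 3206 and 2247. Egr2 went from 1472 to 4656, 3.16-fold, with 3145 and 1589 in Rat1-control cells. Egr1, the brightest of the early factors, went from 63281 to 146952, 2.32-fold, the highest value on the 90 min array, and its other 3 probe sets were 1.45-fold to 1.60-fold higher. Ifrd1, a transcriptional co-regulator, went from 2871 to 14889, 5.19-fold, close to the 4.79-fold of Rat1-control cells. Hes1, the repressor downstream of Notch, was the only brightest probe set of the list called lower, at 4430 and 1468. Of 29 probe sets of early transcription factors with a fold, 8 were called higher and 1 lower (27.6% and 3.45%, against 3.55% and 3.7% of all), and their median log2 fold of 0.68 lay 0.44 above that of all. With the 90 min array scaled to the outside median 4 were called higher, without Klf4, Egr2 and Bhlhe40, a repressor that read 1032 and 3722 (at least 3.55-fold).

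AP-1, the dimer of Fos and Jun proteins, behaved differently from this list. Fos went from 5715 to 12510, 2.19-fold, by its brightest probe set, and was 1.05-fold and 1.14-fold higher by others. In Rat1-control cells the same probe set went from 17317 to 5588, 3.10-fold lower. Jun read 16922 and 8098 in Rat1-Omomer cells and 21117 and 5155 in Rat1-control cells, lower at 90 min in both. Fosl1, a Fos relative that comes later in the response, stayed near the floor in Rat1-Omomer cells at 1423, against 11973 in Rat1-control cells at 90 min. Junb was 1.91-fold higher outside and 4.33-fold lower inside the 5 EST series. None of 10 AP-1 probe sets with a fold was called higher in Rat1-Omomer cells (against 3.55% of all) and 1 was lower (against 3.7%). In Rat1-control cells 1 was higher and 6 lower, against 2.16% and 1.76% of all.

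**Figure D2:**
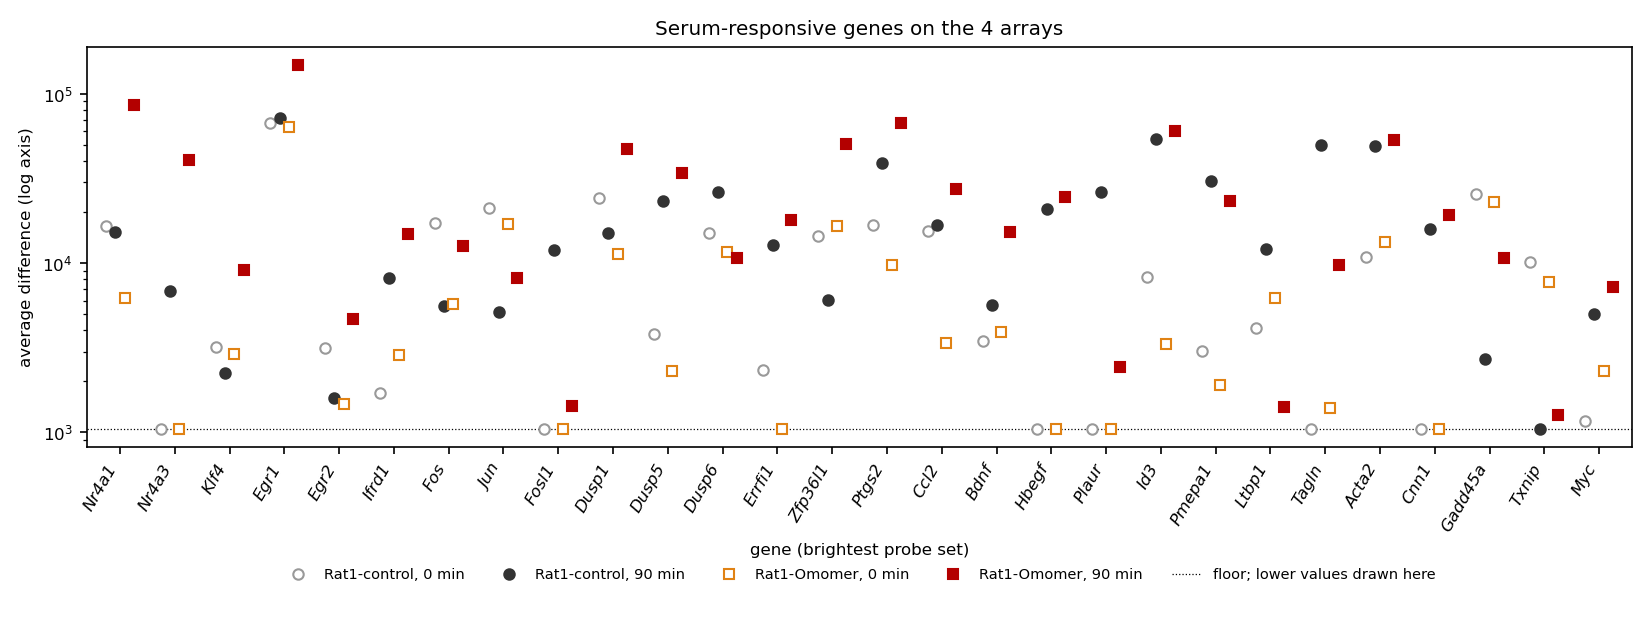
Average differences (log axis) of 28 serum-responsive genes on the 4 arrays, each by its brightest probe set outside the 5 EST series. Circles are Rat1-control and squares Rat1-Omomer cells, open at 0 min and filled at 90 min. Nr4a1, Klf4, Dusp1 and Zfp36l1 are called higher at 90 min in Rat1-Omomer cells. In Rat1-control cells Nr4a1 differs by only 1.09-fold, and Klf4, Dusp1 and Zfp36l1 read lower at 90 min by less than 3-fold. Plaur, Fosl1, Tagln and Ltbp1 reach higher values at 90 min in Rat1-control cells.

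Inhibitors that shut off growth factor signalling, and decay factors of early mRNAs, had the highest median of the lists with more than 1 probe set. Dusp1, the phosphatase that inactivates MAP kinases in the nucleus, had Rat1-Omomer values of 11363 and 46767, 4.12-fold higher at 90 min, and its other probe sets were 7.97-fold and 9.94-fold higher. The same 3 probe sets were 1.61-fold to 2.34-fold lower in Rat1-control cells. Dusp5, a phosphatase of ERK, went from 2296 to 33896, and in Rat1-control cells from 3806 to 23205, higher in both lines. Dusp6, another ERK phosphatase, read 11638 and 10712 in Rat1-Omomer cells, without the increase to 26225 of Rat1-control cells. Errfi1, an inhibitor of the EGF receptor, went from 779 to 18009, at least 17.2-fold, by its brightest probe set. No other probe set of Errfi1 was called higher. Zfp36l1, which binds AU-rich elements and speeds mRNA decay, went from 16594 to 50240, 3.03-fold, whereas it was 2.40-fold lower in Rat1-control cells. Its relative Zfp36 was 1.82-fold higher outside and 6.83-fold lower inside the 5 EST series. Of 14 probe sets of the list 6, of 4 genes, were called higher (42.9%, against 3.55% of all) and none lower (against 3.7%). Their median lay 1.25 above that of all on the log2 scale. In Rat1-control cells 3 of 15 were higher and 1 lower.

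The stretches before the starts of Dusp1, Nr4a1, Dusp5 and Ptgs2 are shown as examples of response elements beside early genes with high folds in Rat1-Omomer cells. Each is the 180 bases upstream of the RefSeq start in GRCr8, on the plus strand, and capitals mark 1 named kind of element in each. Left in lower case are an E-box and another CRE core in the stretch of Dusp1 and a CRE core in that of Dusp5:

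Dusp1, chr10:17184673-17184852, a CRE: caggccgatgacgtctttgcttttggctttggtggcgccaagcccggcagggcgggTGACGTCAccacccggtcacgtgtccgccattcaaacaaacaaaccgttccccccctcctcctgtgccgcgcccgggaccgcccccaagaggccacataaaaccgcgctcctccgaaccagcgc

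Nr4a1, chr7:134259958-134260137, the CRE core: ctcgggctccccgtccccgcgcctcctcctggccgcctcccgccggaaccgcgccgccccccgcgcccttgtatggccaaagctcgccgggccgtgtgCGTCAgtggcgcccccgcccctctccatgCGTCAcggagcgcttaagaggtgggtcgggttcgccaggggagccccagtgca

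Dusp5, chr1:262543594-262543773, CArG boxes: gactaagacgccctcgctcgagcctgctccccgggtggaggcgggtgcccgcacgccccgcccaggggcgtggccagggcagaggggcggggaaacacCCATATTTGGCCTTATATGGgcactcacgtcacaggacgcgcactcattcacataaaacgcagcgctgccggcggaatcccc

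Ptgs2, chr13:64713883-64714062, an E-box: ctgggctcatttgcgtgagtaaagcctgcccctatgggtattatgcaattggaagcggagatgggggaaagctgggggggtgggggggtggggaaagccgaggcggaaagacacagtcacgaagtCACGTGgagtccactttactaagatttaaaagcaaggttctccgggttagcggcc

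The CRE of Dusp1 starts at position -124 from the start of the gene, the CRE cores of Nr4a1 at -82 and -53, the adjoining CArG boxes of Dusp5 at -82 and -72 and the E-box of Ptgs2 at -55. Windows of 300 bases, with 250 before and 50 after the start, were searched on both strands for the CRE (TGACGTCA), its core (TGACG, also counted inside a full CRE), the AP-1 site (TGANTCA), the E-box (CACGTG) and the CArG box. Such windows were given for 60 of the 75 genes higher and 78 of the 97 genes lower at 90 min outside the 5 EST series. A CRE lay in 5.88% of 68 windows of the higher and in 6.33% of 79 windows of the lower genes, against 2.47% of 1782 windows of all genes with a fold and 1.83% of 33469 windows in all. The CRE core was in 35.3% and 46.8%, against 31.6% and 21.2%. The CArG box was in 2.94% and 1.27%, against 1.74% and 1.64%, the AP-1 site in 5.88% and 8.86%, against 5.84% and 7.33%, and the E-box in 7.35% and 10.1%, against 8.92% and 6.42%. A match describes these letters in this window and is not a measured binding site.

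Genes of secreted and surface proteins made up the largest group of higher probe sets among the lists. Ptgs2, the inducible cyclooxygenase of prostaglandin synthesis, went from 9775 to 67202, 6.87-fold, and by another probe set from 4324 to 61996, 14.3-fold, against 2.32-fold and 2.95-fold in Rat1-control cells. Ccl2, the chemokine for monocytes, went from 3385 to 27407, 8.10-fold, whereas it stood at 15369 and 16820 in Rat1-control cells. Bdnf, a neurotrophin, went from 3933 to 15232, 3.87-fold, against 1.63-fold in Rat1-control cells, and its other probe sets with values above the floor on both arrays were 1.42-fold, 3.86-fold and 5.44-fold higher. All 3 thus had a larger fold in Rat1-Omomer cells, and for Ccl2 the 0 min value was the lowest of the 4 arrays.

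Other members were higher at 90 min in both lines. Hbegf, a ligand of the EGF receptor, went from 605 to 24371, at least 23.3-fold, and in Rat1-control cells from 665 to 20822, at least 19.9-fold. Pvr, a cell adhesion receptor, went from 1453 to 12692, 8.73-fold, and Inhba, a subunit of activin, from 1924 to 6107, 3.17-fold. The glucose transporter Slc2a1 went from 3209 to 13890, 4.33-fold, against 7.25-fold in Rat1-control cells. Of the 29 probe sets with a fold, 11, of 7 genes, were called higher (37.9%, against 3.55% of all) and none lower (against 3.7%). Their median lay 1.07 above that of all. In Rat1-control cells 8 of 30 were higher.

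A smaller group of surface and secreted genes read lower at 90 min in Rat1-Omomer than in Rat1-control cells. Plaur, the urokinase receptor, read 209 and 2431 in Rat1-Omomer cells, against -663 and 26308 in Rat1-control cells. Vegfa, the endothelial growth factor, read 437 and 1146 by a probe set outside the 5 EST series, against 702 and 3188, and 2552 and 1082 by the brightest, which lies inside them, against 2909 and 10454. Cd44, the hyaluronan receptor, went from 2820 to 8162, 2.89-fold, against 8.63-fold. Tnc, the matrix protein tenascin C, read 761 and 2783, against 885 and 6840. Each of these 4 genes had its highest value on the Rat1-control 90 min array.

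Id proteins block the DNA binding of other helix-loop-helix factors and are targets of BMP signalling. Id3 went from 3306 to 59972, the highest fold above the floor on both arrays of any probe set with a gene symbol, and its other probe set from 793 to 47199, at least 45.0-fold. Id2 went from 383 to 3306, at least 3.15-fold, and Id1 from 1325 to 2958, 2.23-fold. Pmepa1, an inhibitor of TGF-beta signalling, went from 1895 to 23202, 12.2-fold, and in Rat1-control cells from 3035 to 30514, 10.1-fold. Ltbp1, which binds latent TGF-beta in the matrix, was opposite between the lines, at 6171 and 1416 (4.36-fold lower) in Rat1-Omomer cells and 4153 and 12115 (2.92-fold higher) in Rat1-control cells. Smad4, the common partner of the TGF-beta signal transducers, read 3575 and 595, at least 3.41-fold lower. The list had 5 of 24 probe sets called higher and 2 lower (20.8% and 8.33%, against 3.55% and 3.7% of all). Its median lay 0.51 above that of all.

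Actin-binding proteins of contractile cells, many of them SRF targets, were uneven. Cnn1 (calponin) went from 848 to 19255, at least 18.4-fold, and in Rat1-control cells from 580 to 15872, at least 15.1-fold. Acta2, smooth muscle actin, went from 13277 to 52993, 3.99-fold, near its 4.49-fold in Rat1-control cells, but by a weaker probe set 3.26-fold against 15.4-fold. Tagln, another smooth muscle protein, went from 1396 to 9682, 6.94-fold, and read 2744 and 2350 by its other probe set, while in Rat1-control cells these reached 49359 and 44854. The probe sets of Tagln therefore disagreed in Rat1-Omomer cells and did not in Rat1-control cells. Tpm1, a tropomyosin, ranged over its 5 probe sets from 1.53-fold lower to 3.39-fold higher, against 1.96-fold to 3.14-fold higher in Rat1-control cells. Outside the series 5 of 30 probe sets were called higher (16.7%, against 3.55% of all) and none lower (against 3.7%). Their median lay 0.55 above that of all, and in Rat1-control cells 9 of 30 were higher. Inside the series the adaptor Fhl2 went from 5035 to 33584, 6.67-fold, and filamin C (Flnc) from 5958 to 25117, 4.22-fold, while the capping protein Capg, at 12500 and 2590, the myosin light chain Myl6, at 6458 and 1745, and talin (Tln1), at 3713 and 292, were lower.

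Other genes with high folds belong to none of these groups. Arc, an early gene of synapses that serum also induces, went from 6434 to 51956, 8.08-fold, with 16228 and 13538 in Rat1-control cells. Gpx1, a glutathione peroxidase, went from 2285 to 10161 by its brightest probe set, 4.45-fold, but was 1.57-fold higher by another. The probe set M24067_at, which has no single gene symbol in the annotation used here, went from 2282 to 66205, 29.0-fold, and in Rat1-control cells from 3078 to 60608, 19.7-fold. It was named after its values were seen.

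Over the 115 probe sets higher outside the 5 EST series, the median value went from 1572 to 8183 in Rat1-Omomer cells and from 2097 to 4209 in Rat1-control cells. At 0 min they stood at a median log2 ratio of -0.47 to Rat1-control cells and at 90 min of 0.97. These medians describe probe sets chosen for a high fold, which a low value at 0 min helps to reach. Of 2853 probe sets outside the series with a fold in both lines, 28 were called higher in both, 79 in Rat1-Omomer cells without a 3-fold change in Rat1-control cells, and 34 the reverse. The difference between the lines was not tested.

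Genes of growth arrest, which starved fibroblasts hold high, were lower at 90 min in few cases. Txnip, which binds thioredoxin and limits glucose uptake, went from 7739 to 1269, and by its other probe set from 2995 to 1263, 2.37-fold lower. Gadd45a, a growth arrest gene of stressed cells, read 22940 and 10677, 2.15-fold lower, and 1.92-fold to 2.84-fold lower by its other probe sets, against 25674 and 2696, 9.52-fold lower, in Rat1-control cells. Pnrc1 read 5518 and 2081, 2.65-fold lower, against 7.02-fold. Cyclin G1 (Ccng1) read 12010 and 11969, against 14987 and 6040. Mdm2, the ubiquitin ligase of p53, went from 3321 to 10598, 3.19-fold. The list had 1 of 31 probe sets called higher and 1 lower (3.23% each, against 3.55% and 3.7% of all), and 0 higher and 3 lower with either median scaling. Its median lay 0.16 below that of all, while in Rat1-control cells 7 of 31 were lower. By the brightest probe sets of its 16 genes the list median was 0.28, against 0.24 for 1 probe set per gene of all outside. The side of the median on which this list lies thus depends on how genes are counted.

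Myc itself went from 2307 to 7233 in Rat1-Omomer cells, 3.14-fold, and from 1172 to 4980 in Rat1-control cells, 4.25-fold. It was the only member of its network with a fold outside the 5 EST series. Mxi1, a Max partner that opposes Myc, read 4641 and 430 inside them, at least 4.43-fold lower, and 5076 and 2501 in Rat1-control cells. Among genes known as activated by Myc, none of 38 probe sets was called higher and 6 were lower (15.8%, against 3.7% of all). These 6 measure 3 genes, Ldhb, Ccnd1 and Hspe1. The list includes genes that the paper named as lower with Omomyc on these arrays, Ldhb and Ccnd1 among them. The 15.8% is therefore not independent of these data. Ldhb, a lactate dehydrogenase, read 5676 and 1139 and by its other probe set 4984 and 1102. Cyclin D1 (Ccnd1) read 5836 and 1378 by its brightest probe set, 4.24-fold lower, but 4296 and 4485 by another. The mitochondrial chaperone Hspe1 read 22677 and 7533, 3.01-fold lower. In Rat1-control cells none of 38 was lower, and the Rat1-Omomer median lay 0.14 below that of all. By the brightest probe set of each gene the list median was 0.33, against 0.24 for 1 probe set per gene of all outside. The highest members were Slc3a2, from 10236 to 21779, 2.13-fold, and the elongation factor Eef1a1, from 38382 to 73494, 1.91-fold. The paper named Eef1a1 as lower with Omomyc. Among genes known as repressed by Myc, 1 of 29 was higher and 2 lower (3.45% and 6.9%, against 3.55% and 3.7% of all). Their median lay 0.40 below that of all. This list also includes genes that the paper named as lower with Omomyc, Erbb2 and Fgfr1 among them. Erbb2, a receptor tyrosine kinase, read 4199 and 1001, at least 4.01-fold lower. Fgfr1, an FGF receptor, went from 2944 to 9551, 3.24-fold, but by another probe set read 2992 and 756.

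Among the lowest folds outside the 5 EST series were those of 7 genes that differed little between the Rat1-control arrays. Psmc3, an ATPase of the proteasome cap, went from 6849 to 1067, and read 5767 and 6131 in Rat1-control cells. Tufm, the mitochondrial elongation factor, went from 6390 to 1091, Nudc, a dynein cofactor, from 6710 to 1056, and Got2, the mitochondrial aspartate aminotransferase, from 14739 to 2424. Arf5, a GTPase of vesicle traffic, went from 13835 to 2447, Hibadh, an enzyme of valine breakdown, from 10881 to 2018, and Dbi, the acyl-CoA binding protein, from 13253 to 2477. These 7 genes were between 5.35-fold and 6.42-fold lower, and in Rat1-control cells their folds were between 1.06 and 1.25 in size.

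Fzd2, a receptor of Wnt ligands, was lower in both lines, at 9785 and 1058 in Rat1-Omomer cells, 9.25-fold, and 11825 and 2977 in Rat1-control cells, 3.97-fold. Irf1, an interferon-regulated transcription factor, was as well, at 7278 and 1034, at least 6.94-fold, and 9063 and 1121, 8.08-fold. Cdo1, cysteine dioxygenase, had the lowest fold of all, from 35614 to 1323, but only the Rat1-Omomer 0 min array was high, with 335 and 952 on the Rat1-control arrays and -1139 and 1421 in Rat1-Omomer cells by its other probe set. Atp6ap1, an accessory subunit of the vacuolar ATPase, read 7844 and 667, at least 7.48-fold lower. The neurotrophin receptor Ngfr read 7099 and 411 by its brightest probe set, at least 6.77-fold lower, and 1189 and 1774 by the other.

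**Figure D3:**
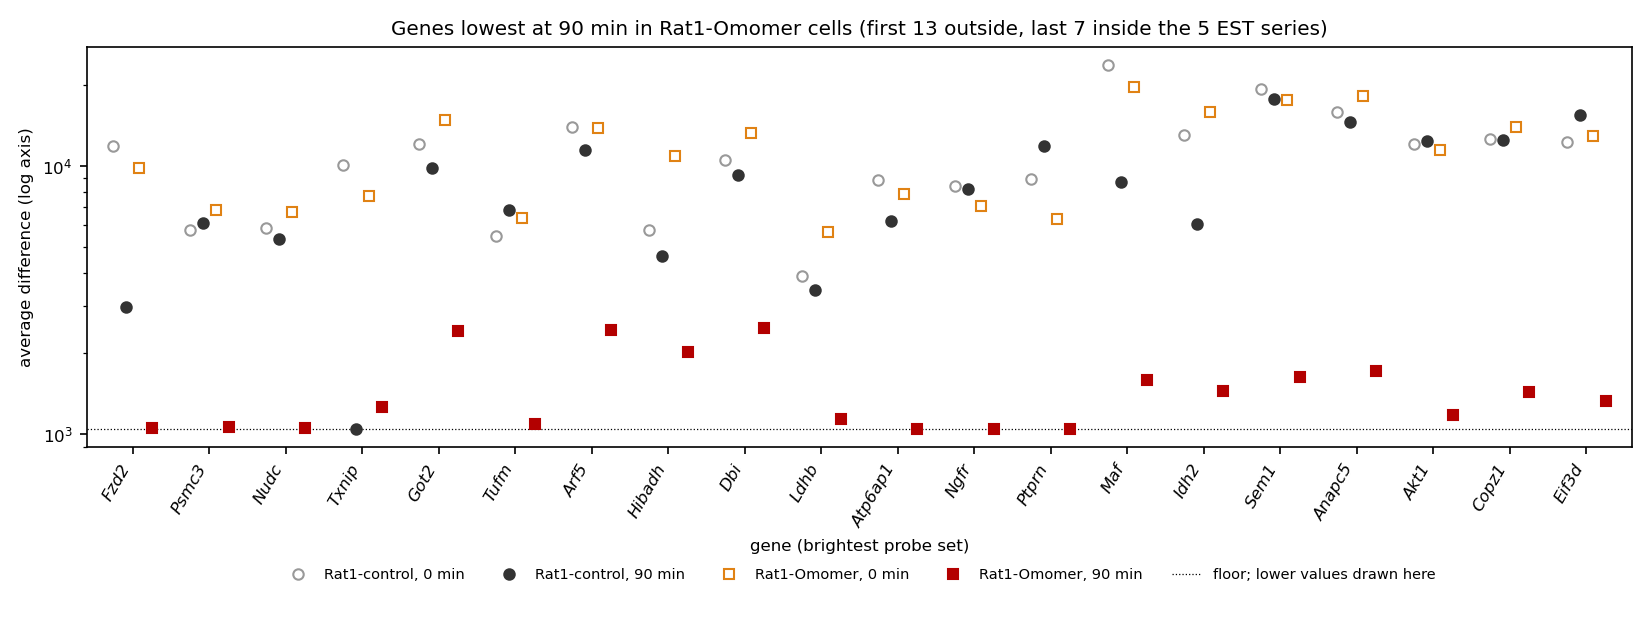
Average differences (log axis) of 20 genes among the lowest folds of Rat1-Omomer cells, 13 outside and 7 inside the 5 EST series, each by its brightest probe set of that group. Circles are Rat1-control and squares Rat1-Omomer cells, open at 0 min and filled at 90 min. For genes such as Psmc3, Tufm, Sem1 and Copz1 the Rat1-Omomer 90 min value lies apart from 3 values close to each other. Fzd2 and Txnip are lower at 90 min in both lines, as is Maf by the probe set inside the series drawn here. By its probe set outside the series, Maf had a log2 fold of -0.13 in Rat1-Omomer cells.

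The 120 lower probe sets outside the 5 EST series had median values of 5829 and 1242.5 in Rat1-Omomer and of 5904 and 4756 in Rat1-control cells. Only 8 of them were called lower in both lines and 110 in Rat1-Omomer cells without a 3-fold change in Rat1-control cells, with 44 the reverse. The share called lower was 5.45% of probe sets with a 0 min value of 2 to 5 times the floor, 9.67% at 5 to 10 times and 4.51% above that.

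Nuclear RNA-binding and splicing proteins had the lowest median of all lists, 0.79 below that of all. Of 25 probe sets outside the series 5 were called lower (against 3.7% of all) and none higher, whereas none of 24 was lower in Rat1-control cells, where the median log2 fold was 0.25. The RNA helicase Dhx9 read 5303 and 723, at least 5.06-fold lower. Hnrnpab, an mRNA-binding protein, went from 20769 to 6359 (15849 and 28851 in Rat1-control cells), Matr3, of the nuclear matrix, from 9662 to 3102, and Hnrnpa1, a splicing regulator, from 11550 to 3845. Inside the series 12 of 18 were lower, against 29.6% of all probe sets there. Some of the 18 measure the same gene, and several have IDs starting rc_AA79, of which 47.7% were lower. Among the 12 were Hnrnpc, from 9494 to 1140, and Srsf2, a splicing factor, from 18667 to 3736. Srsf5 went the other way outside the series, from 11449 to 20268.

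Chromatin proteins had a median 0.55 below that of all, with 2 of 18 probe sets called lower (11.1%, against 3.7% of all). The histone variant H2az1 went from 19829 to 4465, 4.44-fold, and Smarcb1, of the SWI/SNF complex, from 5100 to 1102, 4.63-fold. The architectural protein Hmgb1 went from 14403 to 5589, 2.58-fold lower, and Hmga1 from 6212 to 2965, against 11683 and 20262 in Rat1-control cells. Ssrp1, a histone chaperone, read 1493 and 3288. Inside the series none of 6 chromatin probe sets was called lower, against 29.6% of all there. Their median log2 fold was -0.10, against -0.82 of all there.

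Ribosomal proteins had few calls. Of 48 probe sets outside the series 1, of Rps29, was called higher (2.08%, against 3.55% of all) and none lower. Their median log2 fold was 0.62 in Rat1-Omomer cells, 0.39 above that of all, and 0.19 in Rat1-control cells. Over all probe sets outside the series whose Rat1-Omomer 0 min value exceeded 10 times the floor, the median was 0.36. Rplp0 went from 32212 to 91323, 2.84-fold, and Rpl3 from 48622 to 91966, 1.89-fold. Inside the series 5 of 9 were called lower, against 29.6% of all there, among them another probe set of Rpl3, from 52386 to 13144.

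The remaining lists had few calls, to be read against 3.55% higher and 3.7% lower of all probe sets outside the series. Sterol genes had a median 0.35 below it, with Sqle, an enzyme of cholesterol synthesis, at 11551 and 3244 (3.56-fold lower), while Msmo1 of the same pathway went from 19361 to 62802, 3.24-fold. Cell cycle genes lay 0.26 below it, with 2 of 42 lower, both of Ccnd1. Glycolysis had 2 of 29 higher and 2 lower, citrate cycle genes 1 of 15 lower (Mdh2, from 17325 to 3853), subunits of respiration 1 of 66 lower, proteasome and ubiquitin genes 1 of 43 lower and redox genes 1 of 57 higher. Chaperones had 1 of 46 higher and 3 lower, and Hspa5, the chaperone of the endoplasmic reticulum, went from 24190 to 60140, 2.49-fold, against 3.27-fold in Rat1-control cells. Amino acid stress genes had 1 of 26 lower and 2 higher, both of the arginine transporter Slc7a1, from 1419 to 5100 by its brightest probe set. Matrix genes had 2 of 47 lower, which were the complement protease C1s, from 8007 to 1772, and Plod1, a collagen lysine hydroxylase, from 14113 to 3644. Small GTPases had 2 of 41 lower, receptors and kinases 2 of 38 higher and 3 lower, innate defence genes 3 of 36 higher and 2 lower, translation factors 1 of 30 lower and vacuolar ATPase and lysosome genes 1 of 22 lower. With the outside median scaling, lower calls became 5 in each of the lists of glycolysis, matrix and vacuolar ATPase.

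**Figure D4:**
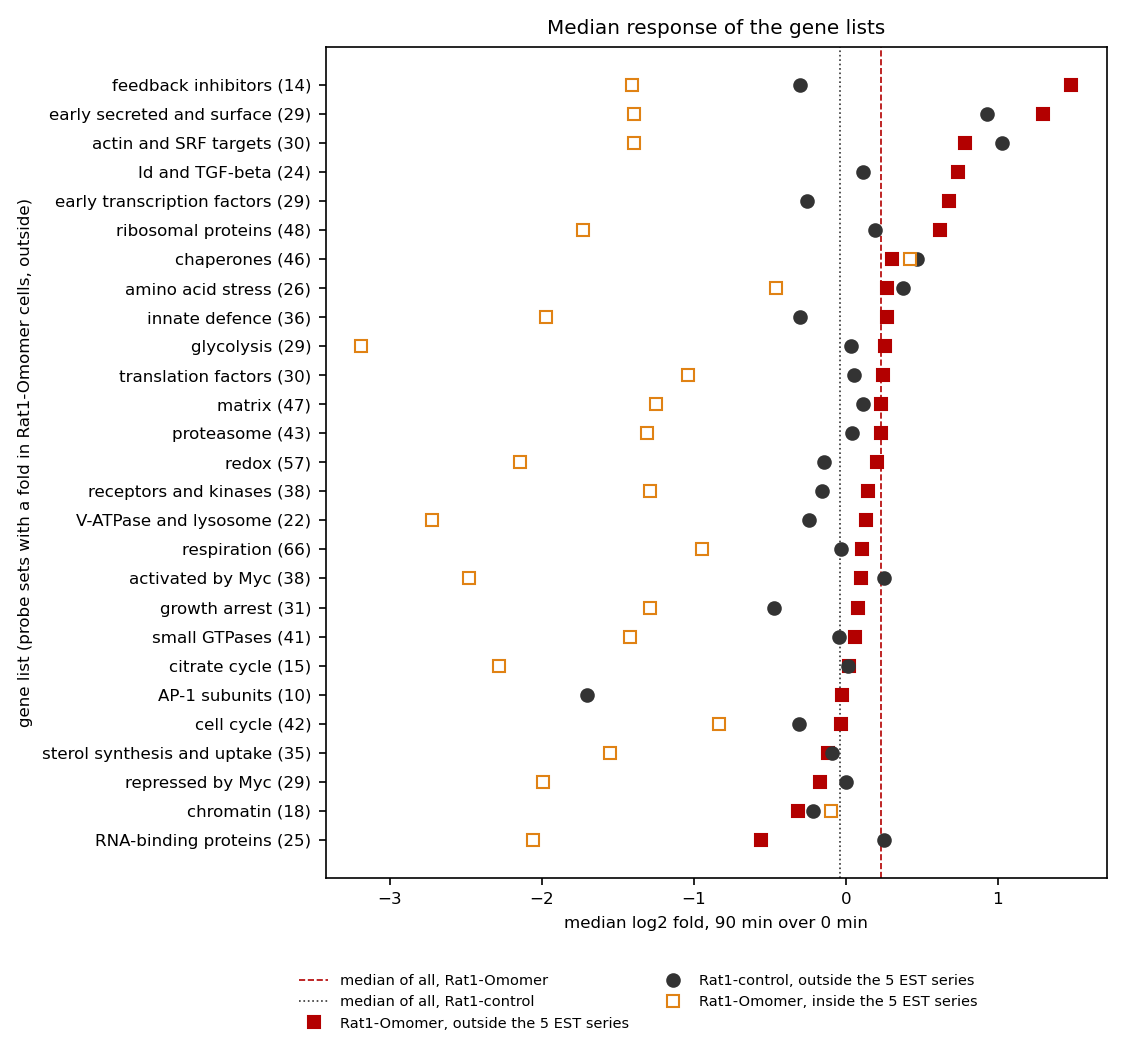
Median log2 fold of 90 min over 0 min (x axis) of 27 gene lists (y axis, with the number of probe sets with a fold outside the 5 EST series). Filled squares are Rat1-Omomer and circles Rat1-control cells outside the series, open squares Rat1-Omomer cells inside them where at least 2 probe sets had a fold, and vertical lines the medians of all probe sets outside. The feedback inhibitors lie 1.25 above and the RNA-binding proteins 0.79 below the Rat1-Omomer median of all, and nearly all open squares lie below 0.

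Inside the 5 EST series, 966 probe sets had a fold in Rat1-Omomer cells, of which 286 (29.6%) were called lower and 7 (0.725%) higher. In Rat1-control cells 19 of 977 (1.94%) were lower and 12 (1.23%) higher. The median log2 fold was -0.82 in Rat1-Omomer and -0.17 in Rat1-control cells. Of the 286, 169 are bounds. Their median value went from 6086 to 895 in Rat1-Omomer cells and from 5948.5 to 4724 in Rat1-control cells. The share lower was 32.3%, 61.2% and 49.2% in the 3 level classes for which 5.45%, 9.67% and 4.51% are given above for other probe sets. By ID it was 47.7% for rc_AA79, 38.8% for rc_AA80, 29.4% for rc_AA89, 15.7% for rc_AA85 and 14.3% for rc_AA87, against 6.47% for other IDs starting rc_ and 2.79% for all others.

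**Figure D5:**
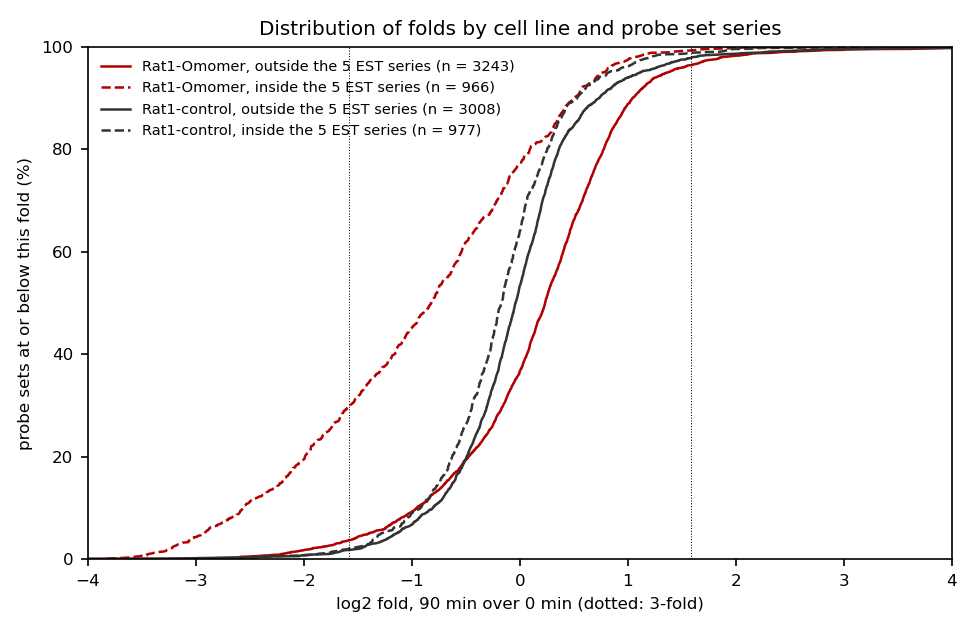
Cumulative share of probe sets (y axis, percent) at or below each log2 fold of 90 min over 0 min (x axis), for Rat1-Omomer (red) and Rat1-control cells (black), outside (solid) and inside (dashed) the 5 EST series. Dotted lines mark 3-fold. The dashed red line lies left of the others, with a median of -0.82 against 0.23 for the solid red line.

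The same genes could be read on both sides. Pairs were formed for 67 genes with a probe set inside and another outside the series, each above the floor on both Rat1-Omomer arrays. This leaves out probe sets that fell under the floor at 90 min, as 169 of the 286 lower calls inside did. Over the 67 the median log2 fold in Rat1-Omomer cells was -0.19 inside and 0.32 outside, and 43 were lower inside. Called lower were 15 of the inside and 2 of the outside probe sets, with 1 gene on both sides. In Rat1-control cells the medians were -0.07 and -0.12. The kinase Akt1 read 11453 and 1177 inside and 5979 and 4073 outside. The glycolytic enzyme Pgk1 read 22651 and 2162 inside and 20435 and 31184 outside. The transcription factor Maf read 19593 and 1597 inside (23636 and 8668 in Rat1-control cells) and 3085 and 2818 outside. For these genes the low value at 90 min was thus seen inside the series and was not seen outside it. Grb2 went the other way, with a log2 fold of 0.67 inside and -1.92 outside. Hnrnpa1 was called lower on both sides, at -3.02 inside and -1.59 outside.

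Other genes with the lowest folds are measured inside the series. Idh2, the mitochondrial isocitrate dehydrogenase, went from 15824 to 1445, and in Rat1-control cells from 12990 to 6087. Sem1, a subunit of the proteasome lid, went from 17551 to 1632, Anapc5, of the anaphase-promoting complex, from 18229 to 1724, Copz1, a coat protein of Golgi vesicles, from 13893 to 1436, and Eif3d, of an initiation factor, from 12844 to 1330. These 4 were 9.66-fold to 10.8-fold lower. In Rat1-control cells Sem1, Anapc5 and Copz1 were lower by 1.09-fold or less, and Eif3d was 1.26-fold higher. Higher were, besides Fhl2 and Flnc, Vmp1, a protein of autophagy, from 8844 to 35099, and the nucleoporin Nup50, from 2111 to 7585. Of 27 lists with a fold inside the series, 26 had a median below 0 there. The part of the probe set series, of the array and of the cells in these low values cannot be told apart with 1 array per condition.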

How the data were processed

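RNA of 4 samples was hybridized to 4 Affymetrix rat arrays, 1 array per condition. Each deposited intensity is an average difference that the authors computed in MAS 4 under default analysis, linear and below 0 where mismatching probes were brighter. Intensities were used as deposited, without further background correction, normalization or log transformation before the floor. The members, the 28 gene lists and the 5 EST series were chosen with earlier results of these data known. The noise SD of 524 was estimated robustly from the negative values of all arrays, and the floor was 2 times it. Folds are ratios of floored values, called at 3-fold, the threshold of the study's methods, which took Rat1-control cells at 0 min as reference. Here Rat1-Omomer cells at 0 min were the reference. Of 8740 probe sets, 7006 had 1 gene symbol (6985 of them updated through the gene ID to the RefSeq table of GRCr8), 308 several and 1426 none, and 59 control probe sets were left out.

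Named genes, each by its brightest probe set, were the 12 highest and 12 lowest folds outside the 5 EST series, the 4 highest and 4 lowest bounds, the 4 highest and 8 lowest folds inside, the 2 highest and 2 lowest members of each list, any member of the early, Id, actin, growth arrest and Myc network lists, and genes named in the study's results. Folds that are not bounds needed both values above the floor, and a mean value of 3 times the floor or more. Other probe sets of these genes are given where they differ by over 1.5 times. Rpl3, Rps29, Pgk1, Mdh2, Plod1, Hspe1, Dhx9, Hnrnpab, Matr3, Hnrnpa1, Srsf2 and Hmga1 were named after their values were seen. So were Grb2, Txnrd1, Slc4a7 and the probe sets without a gene symbol. Alternatives were a floor of 524, of 2096 and of the noisier array, both median scalings, quantile normalization, only folds without a bound, a fold taken as a difference after MAS 4, the brightest probe set of each gene and leaving out IDs starting rc_. Python 3.11.15, numpy 2.4.6, pandas 2.3.3 and matplotlib 3.10.9 were used. Promoter windows are those of RefSeq in GRCr8.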

Additional observations from a re-analysis of the deposited data

Results flagged for a closer look

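Responses of at least 3-fold in opposite directions in the Rat1-Omomer and Rat1-control cells were seen for 3 probe sets, and with 1 array per condition the difference was not tested. The thioredoxin reductase Txnrd1 had a log2 fold of -2.14 in Rat1-Omomer and of 1.96 in Rat1-control cells by the probe set rc_AA891286_at, with values of 4633 and 951 against 4292 and 16641. This probe set lies inside the 5 EST series, and U63923_at, outside them, read 2155 and 3227 in Rat1-Omomer and 1688 and 8342 in Rat1-control cells, higher in both. The bicarbonate transporter Slc4a7 had a log2 fold of -1.77 in Rat1-Omomer and of 1.97 in Rat1-control cells by the probe set rc_AA892414_at, also inside the series, with values of 3599 and 1058 against 2829 and 11072. The probe set M60921_g_at, outside the series and without a single gene symbol in the annotation, had a log2 fold of 2.10 in Rat1-Omomer and of -1.65 in Rat1-control cells, with values of 2575 and 11071 against 7677 and 2447. Its partner M60921_at went the same ways, from 4418 to 26420 and from 16994 to 6132.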

How the results depend on the processing

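The count of probe sets called depended on the floor. Outside the 5 EST series, 115 higher and 120 lower became 192 and 210 when the floor was 524, 70 and 56 when it was 2096, and 74 and 73 with both values required above the floor. With 1 probe set per gene 68 were higher, and without IDs starting rc_ 68 were lower. Inside the series, 286 lower became 466 when the floor was 524, 136 when it was 2096 and 117 with both values above the floor, and 7 higher became 11 with a floor of 524 and 4 with median scaling over all probe sets. Scaling to the outside median, chosen after seeing the data, multiplied the 90 min array by 0.826 and gave 66 higher outside and 3 inside. Under the other alternatives these counts stayed within 1.5 times those reported. Of 870 values of 125 named genes under alternatives, 65 moved by more than the spread within a gene, 45 of them with a floor of 2096, and none reversed. Between 8 and 12 of 28 lists had a median above that of all, against 12 as reported. No paired analysis was possible because each condition has 1 array. No replicate could be left out. The signal over background limits low genes, since folds of at least 3 need a value of at least 3 times the floor on 1 array.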
